A study of Mus musculus with 6 samples.

Results

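The cytosolic ribosome is built from a small and a large subunit, and each of its proteins is usually made from 1 gene. The genes described here are the 82 of 33456 in the count tables whose symbols name such a protein: Rps or Rpl with a number, optionally a letter and an x or l, and Rpsa, Rplp0, Rplp1 and Rplp2. They comprise 32 genes of the small subunit (Rps genes and Rpsa) and 50 of the large subunit (Rpl genes and the stalk genes). The rule for single genes reads the symbol and no measured value, although the family was picked with earlier results of these data known. Visceral (epididymal) fat of mice was digested, and the cells were sorted for CD45, which all leukocytes carry, and for the myeloid integrin CD11b, before single-cell sequencing. There were 3 samples from mice on a high-fat diet (HFD) and 3 from mice on the control diet. The series describes the obesity as long-term, the labels used here give no strain, sex, age or feeding time, and they do not say whether a sample is 1 animal, so the spread that p-values rest on may be partly technical. All 6 samples share the tissue, the digestion and the sort.

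Ribosomal protein messages are among the most abundant of any cell. Many of them start with a stretch of pyrimidines, through which their translation follows growth signals, and most of their proteins are needed in 1 copy per ribosome. A ribosome decodes the message on the small subunit and joins amino acids on the large subunit, from which a flexible stalk recruits the translation factors.

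The bases around the annotated start are given for 6 of these genes, to show where such a stretch stands and where it is short, 4 of them among those with the largest difference in HFD samples (Rpsa, Rps9, Rpl38 and Rplp2) and 2 that did not pass the test (Rpl4 and Rpl15). Each line holds the 20 bases before the start and the 10 bases from it, 5′ to 3′ on the gene's strand, from RefSeq on build GRCm38.p6, with the longest run of C and T that touches the 5 bases on either side of the start in capitals.
Rpsa, chr9:120127746-120127775, plus strand: tggctgtgggttaTTTaaggacgtcatttc
Rps9, chr7:3704021-3704050, plus strand: gtccaaccgccttgTCTCTCTTTgtctcgg
Rpl38, chr11:114668560-114668589, plus strand: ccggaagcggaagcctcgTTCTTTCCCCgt
Rplp2, chr7:141447631-141447660, plus strand: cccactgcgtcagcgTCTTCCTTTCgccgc
Rpl4, chr9:64173367-64173396, plus strand: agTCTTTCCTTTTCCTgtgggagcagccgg
Rpl15, chr14:18270977-18271006, minus strand: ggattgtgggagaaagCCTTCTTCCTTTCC
The full runs were 3 bases long at Rpsa, 9 at Rps9, 10 at Rpl38 and at Rplp2, 14 at Rpl4 and 17 at Rpl15, so long ones stood near the start of genes that passed the test and of genes that did not. The runs at Rpsa and Rpl4 ended before the annotated start, so they lie outside the annotated message. Among all 27025 genes of the RefSeq table, 24.0% had a run of at least 6 there. The letters CCGGAAG, searched on both strands in the 250 bases before to 50 bases after the start, were found for Rpsa, Rpl38, Rplp2 and Rpl15 and for 9.93% of all genes. Only 61 of the 82 genes matched the table, too few for a statement on the family, and a match describes the letters and not a binding site.

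The 6 tables list 5511 entries, each a cell barcode in a sample, from 2195 distinct barcodes. Of these, 1082 (49.3%) stood in more than 1 sample. Each barcode was counted here only in the sample in which it had most unique molecular identifiers (UMIs, tags that count single RNA molecules), which left, after a filter on gene number and mitochondrial share, 2114 cells, 1128 from HFD and 986 from control samples. Kept totals were 3587086 to 5708323 UMIs per HFD sample and 1997647 to 3874349 per control sample, with median UMIs per cell of 9261 to 10079 in HFD and 6299.5 to 8518.5 in control. Ptprc, which encodes CD45, stood at 122 to 127 counts per 1000000 UMIs (CPM, the unit of all levels below, not divided by gene length) in HFD and 218 to 244 in control, and Itgam, which encodes CD11b, at 84.2 to 86.4 and 147 to 217. The macrophage genes C1qa and Csf1r were present in every sample, at 1826 CPM or more for C1qa. Cells were grouped by clustering that left the 82 genes out, and clusters were named from fixed marker lists. Macrophage-like cells made up 64.6% ± 1.98 of HFD cells and 35.7% ± 6.95 of control cells, fibroblast-like cells 18.4% ± 1.2 and 2.32% ± 1.01, and 3 unnamed clusters 1.62% ± 1.13 and 35.1% ± 2.00 (SD, n = 3 each). The unnamed cluster led by Ccl12 and Ccl2 held 88 control and 4 HFD cells and scored highest on the macrophage list. Macrophages may therefore be undercounted in control samples. Summed markers of fibroblasts stood at 6798 to 7863 CPM in HFD and 971 to 2198 in control, with none of the 8 at 0, in a sort that should lack these cells. Values without the fibroblast-like cells are given with the mix of cells.

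Ribosomal protein messages took a smaller share of the RNA of HFD samples. They made up 13.71%, 13.21% and 13.67% of UMIs in HFD samples 1, 2 and 3, against 16.56%, 17.36% and 16.28% in control samples 1, 2 and 3. The groups did not overlap, and their means were 13.5% ± 0.278 in HFD and 16.7% ± 0.560 in control, a difference of -3.20 percentage points (SD, n = 3 each). The 95% Clopper-Pearson intervals of these shares reached at most 13.74% in HFD and down to 16.24% in control, and cover counting error only. No p-value is given for the difference in these shares between diets, since only 20 arrangements of the 6 samples exist. An exact permutation test over them cannot go below 0.1. The typical cell showed the same order, with a median share per cell of 12.99% ± 0.401 in HFD and 15.6% ± 0.761 in control samples. Within a sample, single cells ranged widely, for example between 7.76% and 22.1% (5th and 95th percentiles) in HFD sample 1 and between 9.31% and 24.2% in control sample 1.

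A share does not count molecules. The number of ribosomal protein UMIs per cell was 1728, 1606 and 1635 in HFD and 1654, 1334 and 1307 in control samples, which overlapped, whereas UMIs of all other genes per cell were 10326 to 10873 in HFD and 6349 to 8332 in control. In macrophage-like cells the ribosomal protein UMIs were more numerous in HFD, at 1755, 1748 and 1802 per cell, than in control, at 1311, 1233 and 1126. Other UMIs in these cells stood at 12007 to 12247 in HFD and 6792 to 8109 in control. The values below are shares and fold changes relative to the other genes, not numbers of molecules per cell. UMIs per cell also depend on capture and sequencing depth, whose part was not tested.

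The diets kept their order within ranges of UMIs per cell. Among cells of at most 5000 UMIs the share was 13.9% ± 0.425 in HFD and 15.3% ± 0.521 in control, and among those of over 20000 UMIs 13.4% ± 0.213 in HFD and 15.8% ± 1.05 in control. In all 4 ranges of UMIs per cell the HFD samples lay below the control samples without overlap, and the widest gap, -4.60 points, stood between 10000 and 20000 UMIs. In macrophage-like cells the diets were without overlap in that range only, at 12.4% ± 0.149 in HFD and 14.6% ± 0.839 in control.

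**Figure D1:**
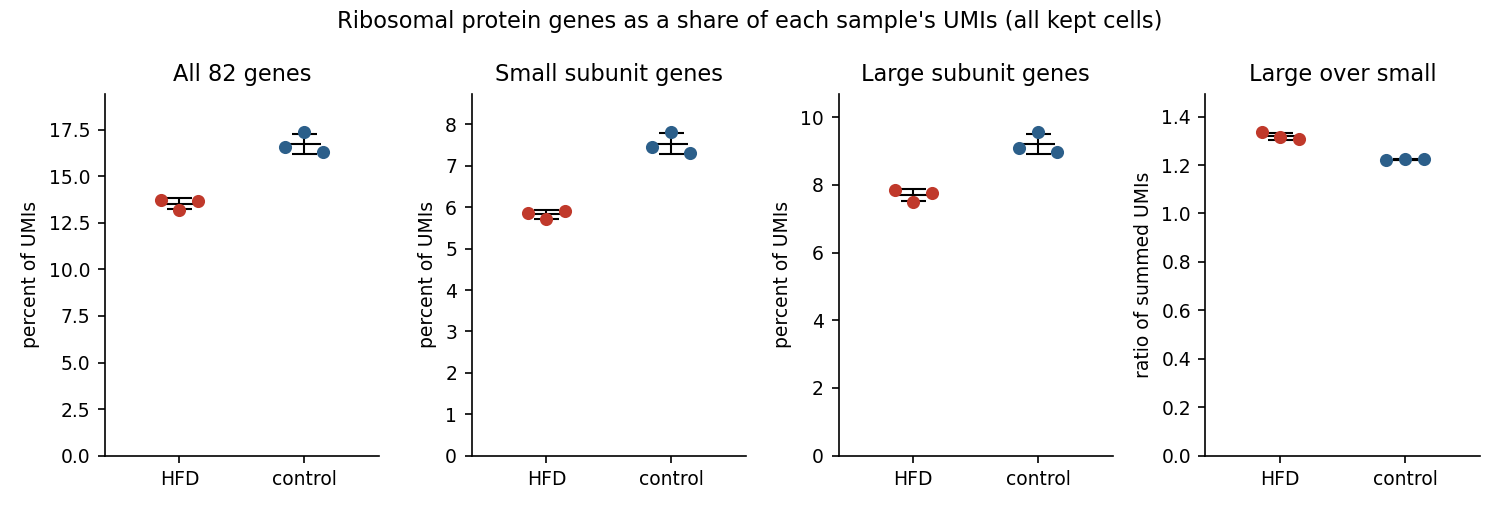
Share of a sample's UMIs from all 82 ribosomal protein genes, from small subunit genes and from large subunit genes (percent), and the ratio of large to small subunit UMIs, for 3 HFD samples (red, left) and 3 control samples (blue, right). Points are samples and bars the mean and SD; HFD shares of 13.21% to 13.71% lie below control shares of 16.28% to 17.36%, and the ratio is higher in HFD.

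The shift was larger for the small subunit than for the large one. Small subunit genes took 5.83% ± 0.112 of UMIs in HFD and 7.53% ± 0.253 in control, 0.775 times the control level. Large subunit genes took 7.70% ± 0.174 in HFD and 9.20% ± 0.308 in control, 0.836 times. The ratio of large to small subunit UMIs was 1.335, 1.314 and 1.308 in HFD samples, against 1.220, 1.223 and 1.224 in control samples, with control samples spread by 0.00208 (SD). The 3 stalk genes Rplp0, Rplp1 and Rplp2 together took 0.548% ± 0.0156 of UMIs in HFD and 0.690% ± 0.0224 in control.

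Gene by gene, edgeR's quasi-likelihood test on UMIs summed per sample could test 79 of the 82 genes, and all 79 had a negative log2 fold change of HFD over control, except that Rpl3 and Rpl31 were above 0 on plain library sizes. Of these, 67 (84.8%) passed as lower in HFD at an adjusted p below 0.05 over all 10450 genes tested, and 0 as higher. Of all genes tested, 17.2% passed as lower and 15.2% as higher. At an unadjusted p below 0.05 the count was 70, all negative, without a share of all genes to set beside it, and DESeq2 called 66 lower and 0 higher. Their median log2 fold change was -0.42, that of all genes -0.015. By subunit, 30 of 32 tested small subunit genes and 37 of 47 large subunit genes passed as lower, with medians of -0.49 and -0.39. The levels of 67 genes were lower in every HFD sample than in every control sample, which held for 17.7% of all genes. Scaling by plain library sizes lifted the median of all genes to 0.13 and that of the ribosomal protein genes to -0.28, and 52 genes then passed as lower.

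Cells with shared and unshared barcodes were also taken apart. Among the 1034 kept cells whose barcode stood in 1 sample, the share was 14.1% ± 0.267 in HFD and 15.8% ± 0.443 in control, and among the 1080 others 13.3% ± 0.195 in HFD and 17.0% ± 0.556 in control. The unshared cells were shallower, with median UMIs of 5100 to 7524 in HFD and 3495 to 4819 in control samples. In sums over them 27 of 78 tested genes passed as lower and 5 as higher, beside 14.3% and 14.2% of all genes, and all 27 were among the 67. The 5 higher ones were Rpl4, Rpl3, Rpl15, Rplp0 and Rps2, at log2 fold changes of 0.31 to 0.43. With barcodes counted wherever the deposited tables list them, 64 genes passed as lower and 0 as higher.

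The small subunit gene Rpsa, whose protein also carries the name laminin receptor, had the largest difference. It stood at 834, 774 and 849 CPM in HFD and 1359, 1514 and 1301 in control samples, a log2 fold change of -0.91 ± 0.10 (SE, adjusted p = 0.00033). Rps9, whose bacterial counterpart S4 binds ribosomal RNA early in assembly, stood at 2216, 2194 and 2262 CPM in HFD and 3296, 3498 and 3254 in control (-0.73 ± 0.08, adjusted p = 0.00035). Rps21 stood at 749, 712 and 765 CPM in HFD and 1038, 1163 and 1150 in control (-0.73 ± 0.08, adjusted p = 0.00045). In each of these genes the 3 HFD samples lay close together and well below the control samples. Rps29, which holds a zinc ion, stood at 4748, 4593 and 4799 CPM in HFD and 6728, 6975 and 7061 in control (-0.695 ± 0.073, adjusted p = 0.00032). Rps12 stood at 870, 897 and 921 CPM in HFD and 1209, 1418 and 1320 in control, and its log2 fold change was -0.695 ± 0.089 (adjusted p = 0.00072).

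On the large subunit the genes with the largest differences encode small proteins, with 276 coding bases for Rpl37a, 210 for Rpl38 and 345 for Rplp2. Rpl37a, a zinc-binding protein, stood at 3422, 3342 and 3394 CPM in HFD and 4570, 5389 and 5157 in control (-0.71 ± 0.08, adjusted p = 0.00049). Rpl38, which in mouse embryos is needed for correct patterning of the skeleton, stood at 1522, 1476 and 1528 CPM in HFD and 2007, 2377 and 2222 in control (-0.69 ± 0.09, adjusted p = 0.00072). The stalk consists of the acidic proteins Rplp1 and Rplp2 and their anchor Rplp0, whose fold changes were not tested against each other. Rplp2 stood at 1536, 1507 and 1517 CPM in HFD and 2074, 2323 and 2217 in control (-0.68 ± 0.08, adjusted p = 0.00051), and its partner Rplp1 at 1890, 1823 and 1873 in HFD and 2359, 2457 and 2407 in control (-0.51 ± 0.08, adjusted p = 0.0014). Rplp0, on which both sit, stood at 2201, 1985 and 2098 CPM in HFD and 2422, 2361 and 2075 in control, where the diets overlapped (-0.27 ± 0.10, adjusted p = 0.065).

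At the other end, 12 genes did not pass the threshold. They were Rplp0, Rpl29, Rpl6, Rpl24, Rpl4, Rpl35, Rps2, Rpl15, Rps4l, Rpl10a, Rpl31 and Rpl3, and in all 12 the diets overlapped. Rpl3, which reaches towards the site of peptide bond formation, stood at 2003, 1873 and 1902 CPM in HFD and 1921, 1832 and 1766 in control (-0.08 ± 0.08, adjusted p = 0.53). Rpl4, which lines the exit tunnel, stood at 1132, 1079 and 1067 CPM in HFD and 1187, 1145 and 1042 in control (-0.19 ± 0.09, adjusted p = 0.15). For Rpl31 and Rpl10a the log2 fold changes were -0.14 (adjusted p = 0.20) and -0.15 (adjusted p = 0.16), and for Rpl15, Rps2 and Rpl35 -0.17, -0.18 and -0.18 (adjusted p = 0.15, 0.12 and 0.13). On plain library sizes Rpl3 and Rpl31 had values above 0, at 0.07 and 0.00, so no direction is given for them, and Rpl35 and Rpl15 were at 0.14 and 0.18 with barcodes counted wherever they are listed.

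The 8 genes with the highest UMI levels, named for their level whatever their fold change, all passed as lower over all kept cells. Rpl41, the shortest of these proteins, stood at 4960, 4667 and 4903 CPM in HFD and 5458, 6197 and 6180 in control (-0.44 ± 0.08, adjusted p = 0.0038). Rps19, mutated in inherited failure of red cell production in humans, stood at 3362, 3298 and 3376 in HFD and 4111, 4441 and 3737 in control (-0.435 ± 0.094, adjusted p = 0.0078). Rps28 fell by 0.57 (adjusted p = 0.0012), Rps14 by 0.51 (adjusted p = 0.0016) and Rpl13 by 0.37 (adjusted p = 0.013) on the log2 scale. Among cells with unshared barcodes Rps19 was at -0.02 (adjusted p = 0.89) and Rpl13 at 0.13 (adjusted p = 0.36), so neither passed there and Rpl13 changed sign, while Rpl41, Rps28 and Rps14 passed as lower. Rps28 did not pass as deposited (-0.19, adjusted p = 0.16). Counts of these genes are uncertain where reads fit a near-identical copy. The 20 table rows that carry a ribosomal protein pseudogene symbol held 0.414% ± 0.0751 of UMIs in HFD and 0.752% ± 0.115 in control, without overlap.

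**Figure D2:**
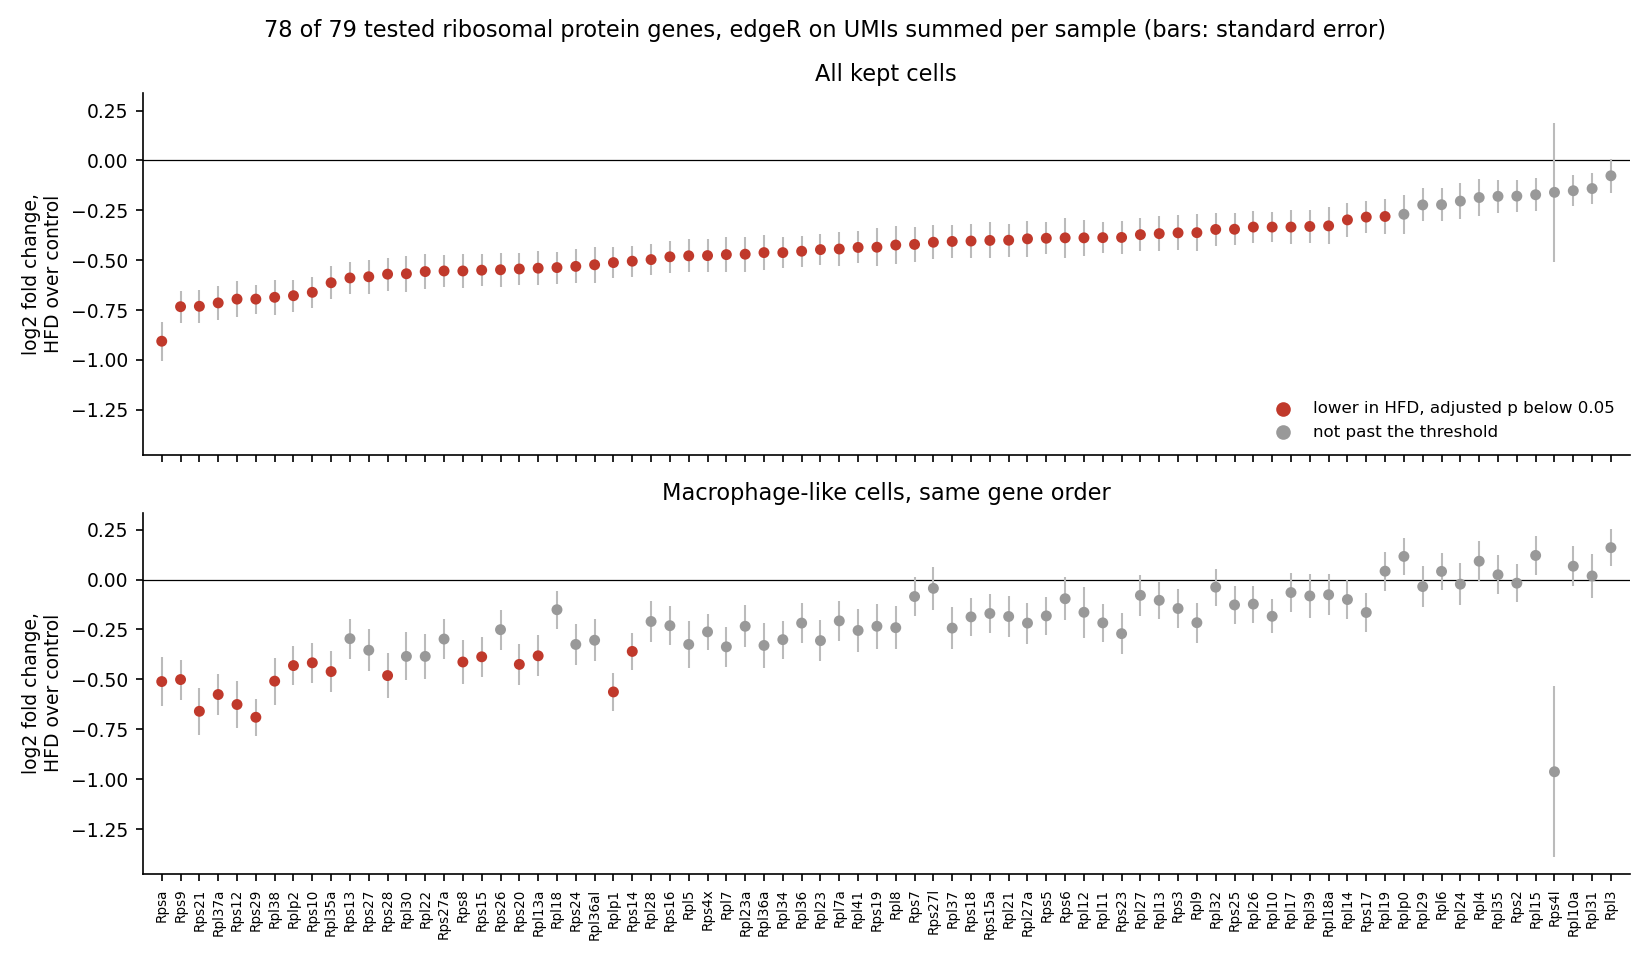
Log2 fold change of HFD over control (vertical axis) for 78 of the 79 tested ribosomal protein genes (horizontal axis, ordered by the value in all kept cells), with standard errors as bars; upper panel all kept cells, lower panel macrophage-like cells. Red points passed as lower in HFD (66 above, 17 below); with TMM scaling all upper points lie below 0 (Rpl3 and Rpl31 lie above it on plain library sizes), and 9 of the lower ones lie above it.

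For the variants encoded by a second gene, the main copy and the variant are given together. Rps27 stood at 3134, 3270 and 3344 CPM in HFD and 4359, 4646 and 4224 in control (-0.58 ± 0.08, adjusted p = 0.0012). Its variant Rps27l, which p53 induces in human cells, stood at 653, 628 and 637 in HFD and 705, 805 and 801 in control (-0.41 ± 0.08, adjusted p = 0.0062). Rps27rt, a near copy of Rps27 that the symbol rule leaves out, stood at 1899, 2241 and 2567 in HFD and 3440, 4038 and 3296 in control (-0.825 ± 0.134, adjusted p = 0.0021), and how reads were divided between it and Rps27 is not known. Rpl36a and Rpl36al fell by 0.46 (adjusted p = 0.0044) and 0.52 (adjusted p = 0.0027), and Rpl10, which helps the subunits join, by 0.33 (adjusted p = 0.010) on the log2 scale. Rps4x, the main copy of its gene pair, fell by 0.48 (adjusted p = 0.0029), while Rps4l stood at 6.48, 7.25 and 12.3 CPM in HFD and 9.55, 11.5 and 5.53 in control (-0.16 ± 0.35, adjusted p = 0.76). Rpl39 fell by 0.33 (adjusted p = 0.014). Among cells with unshared barcodes none of Rps27l, Rpl36a, Rpl36al, Rpl10, Rps4x and Rpl39 passed, with Rpl10 at -0.00 (adjusted p = 0.99) and Rpl39 at -0.08 (adjusted p = 0.56), while Rps27 did (-0.27, adjusted p = 0.038). Rpl10 and Rpl39 also did not pass on plain library sizes (adjusted p = 0.06 and 0.081) or as deposited (adjusted p = 0.051 and 0.1), and Rps27 did not as deposited (-0.215, adjusted p = 0.1).

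The 3 genes too low to test were such variants. Rpl10l, a testis variant of Rpl10, had 1 UMI in all cells. Rpl39l, a testis variant of Rpl39, had 37 UMIs in HFD and 6 in control samples, but 13 of the HFD UMIs came from 1 migratory dendritic cell-like cell. Another 22 lay in 13 HFD macrophage-like cells, 9 of them in 1 cell, and control macrophage-like cells had 0, which allows up to 3. The HFD cells of this class were more numerous and deeper, 729 with a median of 11891 UMIs against 358 with 6734.5 in control. Rpl3l, known from heart and skeletal muscle in place of Rpl3, had 12 UMIs in HFD and 9 in control. Of these 21 UMIs, 18 lay in 13 of the 123 monocyte-like cells, 11 in HFD and 7 in control, and every sample contributed, although monocyte-like cells held 4.13% of all UMIs. Macrophage-like cells, with 59.0% of UMIs, held 1 Rpl3l UMI.

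**Figure D3:**
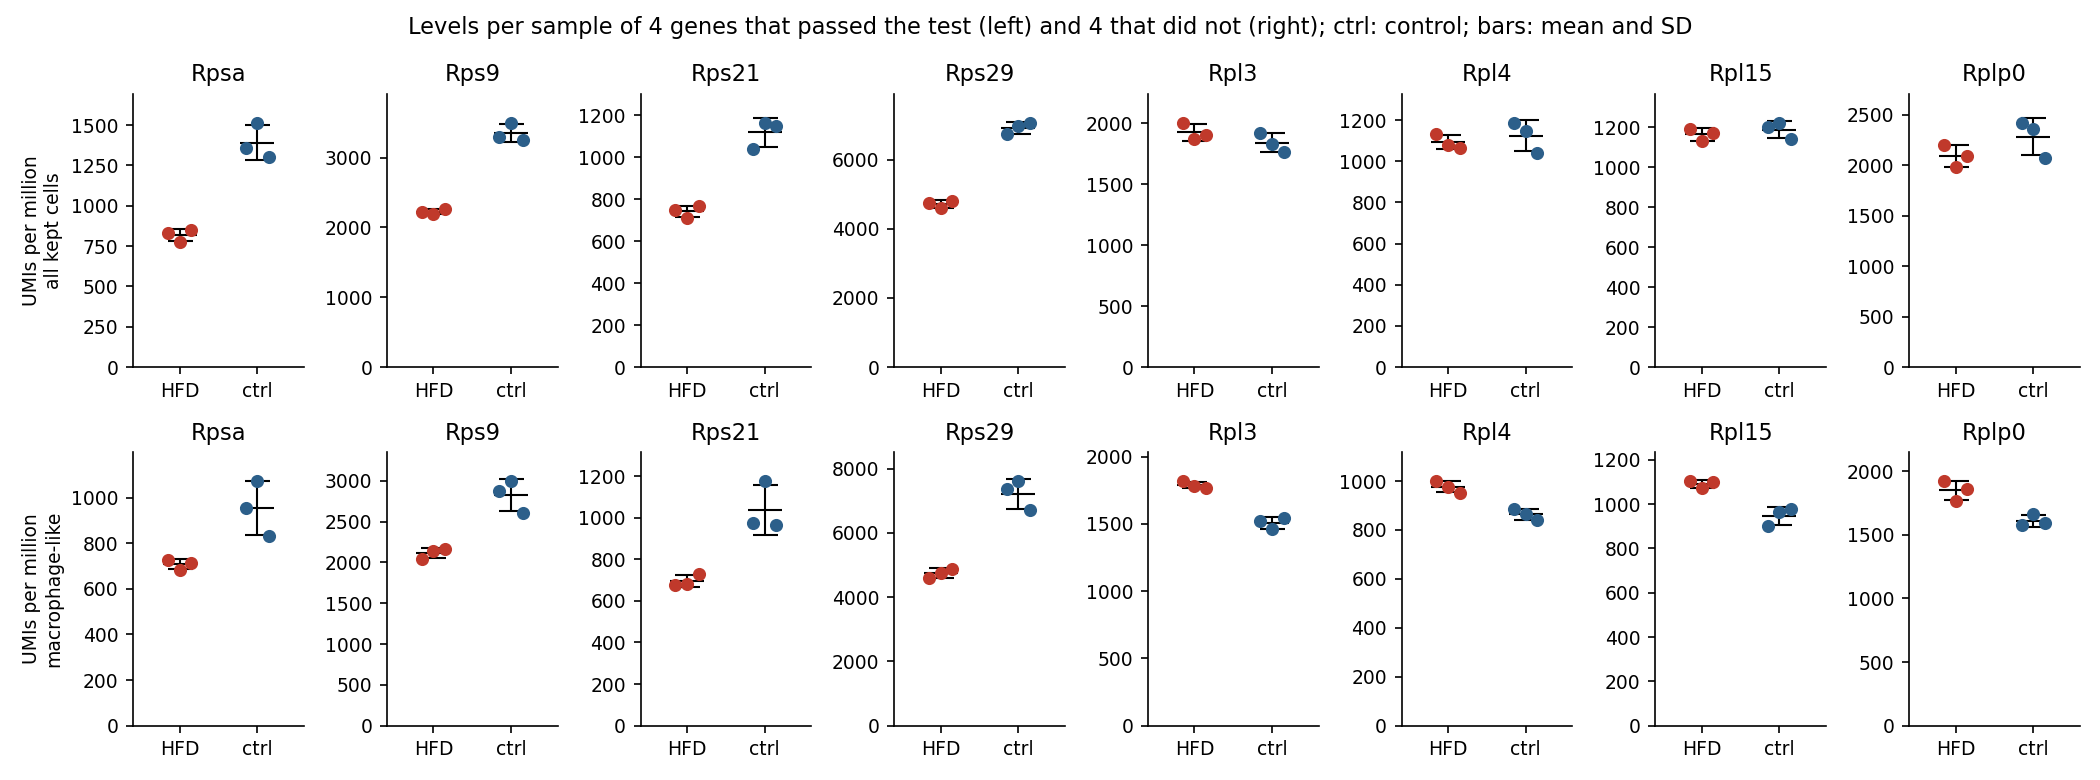
Level of 8 genes in CPM (vertical axes, from 0) in each of 3 HFD samples (red, left) and 3 control samples (blue, right), with mean and SD; upper row all kept cells, lower row macrophage-like cells. Rpsa, Rps9, Rps21 and Rps29 lie lower in HFD in both rows, while Rpl3, Rpl4, Rpl15 and Rplp0 overlap in the upper row and lie higher in HFD in the lower one, without passing the test.

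Within macrophage-like cells the share differed less than over all cells. It was 12.65%, 12.71% and 12.82% in HFD, against 13.92%, 15.37% and 13.69% in control samples, a difference of -1.60 points with no overlap. Control sample 2 stood highest, and without it the difference was -1.08 points. At clustering resolution 0.5 the difference was -1.24 points. The unnamed cluster led by Ccl12 and Ccl2, with a pooled share of 13.2%, was not counted in the macrophage-like class. Most cells of this class lay in different clusters in the 2 diets. Of the 358 control cells, 223 fell in the cluster led by Cd209f and Lyve1, genes of resident macrophages, against 40 of the 729 HFD cells. HFD cells lay mostly in clusters led by Gpnmb (210 cells), Gdf15 (169 cells) and Spp1 (154 cells), which held 11, 9 and 11 control cells. In the Cd209f cluster, the only macrophage-like cluster with at least 10 cells in every sample, the shares overlapped, at 13.20%, 11.85% and 10.51% in HFD (13, 12 and 15 cells) and 12.20%, 14.44% and 13.17% in control samples.

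In macrophage-like sums 70 of 79 genes had a negative log2 fold change, with a median of -0.22 beside -0.022 for all genes. Of the 79, 17 (21.5%) passed as lower and 0 as higher, where 9.15% and 5.68% of all 8765 genes tested passed. All 17 were also among the 67 of the whole samples. At an unadjusted p below 0.05 the count was 36, all negative, without a share of all genes to set beside it. DESeq2 called 20 lower and 0 higher. By subunit 11 of 32 small subunit and 6 of 47 large subunit genes passed as lower. Levels of 41 genes were lower and of 7 higher in HFD without overlap, beside 15.5% and 23.1% of all genes. In the macrophage-like cells with unshared barcodes, an alternative chosen after seeing the data, 18 of 78 genes passed as lower, including all 17, and 2 as higher, Rpl4 (0.47, adjusted p = 0.029) and Rpl3 (0.41, adjusted p = 0.029). There 12.0% of all genes passed as lower and 8.18% as higher. Without HFD sample 1, 2 or 3 the count of 17 dropped to 2, 3 and 6, and without control sample 2 to 6, while without control sample 1 or 3 it was 18 and 23.

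The genes at both ends were largely those of the whole samples. Rps29 stood at 4586, 4763 and 4888 CPM in HFD macrophage-like cells and 7357, 7606 and 6701 in control ones (-0.69 ± 0.09, adjusted p = 0.0035). Rps21 stood at 676, 679 and 730 in HFD and 974, 1175 and 964 in control (-0.66 ± 0.12, adjusted p = 0.0086), and Rps12 at 791, 866 and 869 in HFD and 1123, 1399 and 1159 in control (-0.63 ± 0.12, adjusted p = 0.011). Rplp1 stood at 1800, 1817 and 1803 in HFD and 2490, 2674 and 2392 in control (-0.56 ± 0.09, adjusted p = 0.0069). Rplp2 fell by 0.43 (adjusted p = 0.023) and Rpsa by 0.51 (adjusted p = 0.026) on the log2 scale. Rplp0, the stalk's anchor, stood at 1919, 1768 and 1859 in HFD and 1574, 1665 and 1589 in control (0.12 ± 0.09, adjusted p = 0.43), which did not pass. Rpl3 stood at 1816, 1780 and 1768 in HFD and 1523, 1460 and 1545 in control (0.16 ± 0.09, adjusted p = 0.27). Rpl15 and Rpl4 had log2 fold changes of 0.12 (adjusted p = 0.42) and 0.09 (adjusted p = 0.57). For Rpl3, Rpl4, Rpl15 and Rplp0 every HFD sample lay above every control sample in CPM, and none passed the test. Rps4l had the lowest fold change, -0.96 ± 0.43, but at 2.65 to 6.61 CPM in HFD and 6.78 to 13.5 in control it did not pass (adjusted p = 0.16).

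The position of a gene in this order went with the length of its coding sequence. Over the 78 genes of at least 100 CPM, Spearman's rho between coding length and log2 fold change was 0.40 in whole samples and 0.42 in macrophage-like cells, a description across genes of the same 6 samples. The 26 genes with at most 400 coding bases had a median log2 fold change of -0.53 in whole samples and the 52 longer ones -0.39. In macrophage-like cells the medians were -0.33 and -0.185. Other genes of similar coding length and level leaned the same way with lower values of rho, 0.26 over 174 genes in whole samples and 0.17 over 197 in macrophage-like cells. Their medians in whole samples were -0.35 for the short and -0.07 for the long ones. Rpsa, at 885 coding bases, and Rps9, at 582, stood below genes of like length, while Rpl39, at 153, stood above.

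**Figure D4:**
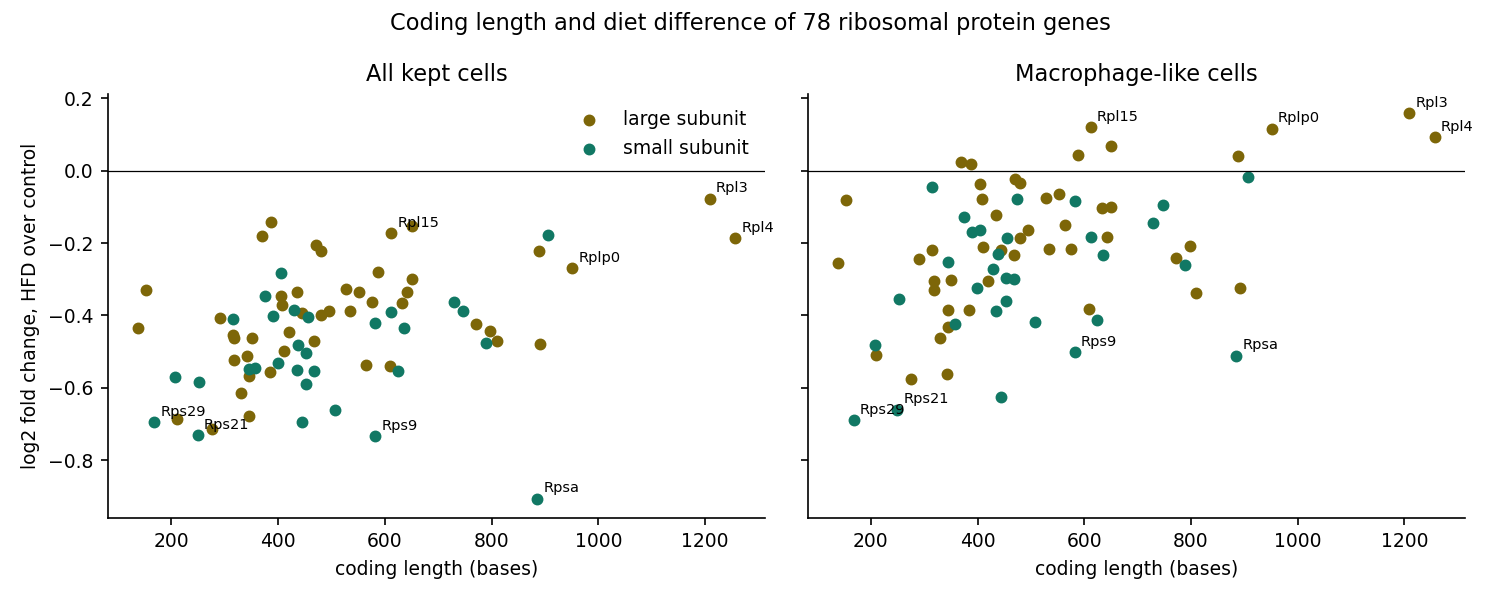
Coding length in bases (horizontal axis) against log2 fold change of HFD over control (vertical axis) for 78 ribosomal protein genes of the large (brown) and small (green) subunit, in all kept cells (left) and macrophage-like cells (right). Short genes such as Rps29 and Rps21 lie low and long ones such as Rpl3 and Rpl4 high, with rho of 0.40 and 0.42, and Rpsa is a long gene that lies low.

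Cell classes lay further apart than the diets did. These values are descriptions, since the classes come from clustering the same cells. T cell-like cells had 21.4% (53 cells pooled), cDC2-like cells, the type 2 dendritic cells, 21.3% (134 cells) and migratory dendritic cell-like cells 21.0% (39 cells). Monocyte-like cells stood at 17.1% (123 cells), fibroblast-like at 14.8% (231 cells) and macrophage-like at 13.1% (1087 cells). Median UMIs per cell were 4194 in T cell-like, 9531 in cDC2-like and 9976 in macrophage-like cells, so T cell-like cells were far shallower than the other 2 classes, which lay close together. In each of the 5 samples with at least 10 cDC2-like cells these lay 6.33 to 8.86 points above the macrophage-like cells of the same sample. Monocyte-like cells lay 1.93 to 4.30 points above them in all 6 samples. Among macrophage-like clusters the lowest pooled share, 11.9%, was that of the cluster led by Spp1, and the highest, 16.45%, that of a cluster of 51 cells led by Saa3. An unnamed cluster led by Ear2 and Lyz1 had 18.4% and held 146 control and 4 HFD cells.

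**Figure D5:**
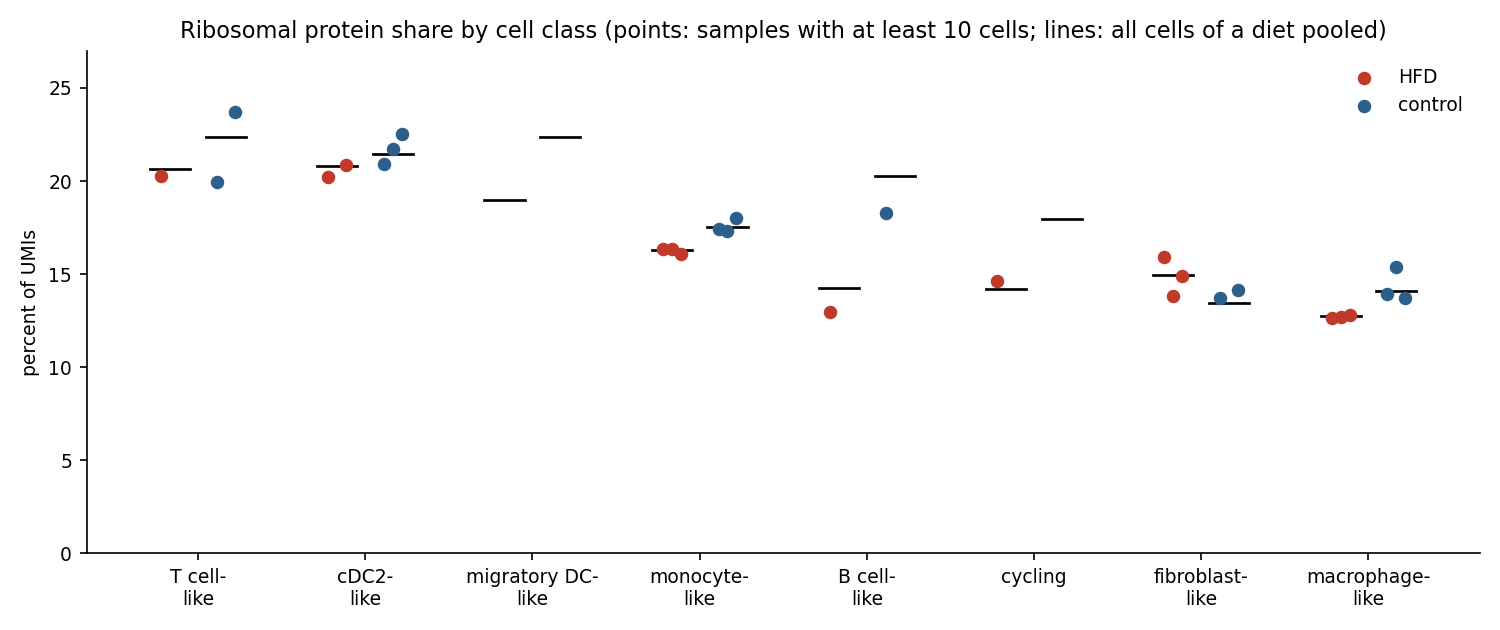
Share of UMIs from the 82 genes (percent, vertical axis) by cell class (horizontal axis), HFD in red on the left and control in blue on the right of each class; points are samples with at least 10 cells of the class, lines all cells of a diet pooled. Dendritic and T cell-like cells lie near 21% and macrophage-like cells near 13%.

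Classes and diets were crossed as far as cell numbers allowed. Monocyte-like cells had 16.34%, 16.36% and 16.07% in HFD and 17.42%, 17.30% and 17.99% in control samples, without overlap, from 13 to 32 cells a sample. In cDC2-like cells the shares were 20.23% and 20.88% in HFD and 20.94%, 21.70% and 22.55% in control, in samples of at least 10 cells. These did not overlap, but HFD sample 1, left out with 9 cells, stood at 21.17%, above control sample 1 at 20.94%. Fibroblast-like cells had 15.89%, 13.83% and 14.90% in HFD, against 13.72% and 14.16% in control, where the diets overlapped. The gap between fibroblast-like and macrophage-like cells of a sample was 2.15 ± 1.06 points over 3 HFD samples and 0.135 ± 0.474 over 2 control samples (two-sided exact permutation p = 0.20 over 10 arrangements). These gaps did not overlap between the diets. The gap of monocyte-like cells was 3.53 ± 0.243 points in HFD and 3.24 ± 1.21 in control (exact p = 0.80). With so few arrangements neither test could reach 0.05. No gene passed the threshold in these 3 classes, fitted with at least 10 cells a sample, an alternative chosen after seeing the data, by edgeR. In monocyte-like cells 77 of 78 genes had a negative value (median -0.17, 15 at an unadjusted p below 0.05), in cDC2-like cells 75 of 78 (median -0.18, 14 at that level) and in fibroblast-like cells 27 of 79 (median 0.07, 7 at that level). Of all genes tested, 0.0554%, 0.0421% and 1.04% passed in either direction in these classes, so these fits could call little. The counts at an unadjusted p have no share of all genes to set beside them.

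The whole-sample shares were also recomputed at a fixed mix of cells. With the UMIs of HFD cells reweighted to the control mix of the 9 classes, the HFD share was 14.9% in place of 13.6%, beside 16.7% in control cells pooled. With control cells reweighted to the HFD mix, the control share was 14.9% by class and 14.1% by the 17 clusters. These pooled values have no spread, and parts of them rest on few cells. The fibroblast-like class held 24 control cells and the unnamed clusters 20 HFD cells. The clusters led by Gpnmb, Gdf15 and Spp1 held 11, 9 and 11 control cells. In summed counts a smaller part of rich classes and a lower share of these messages within cells cannot be told apart for a single gene. Without the fibroblast-like cells, an alternative chosen after seeing the data, 66 genes passed as lower, all among the 67, and the difference in share was -3.43 points. Without the 3 unnamed clusters it was -3.28 points.

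Single genes also differed between classes, here by CPM pooled over both diets, which fill the classes unequally (207 of 231 fibroblast-like and 34 of 134 cDC2-like cells were HFD). Of the 78 genes with at least 50 CPM in every named class, 58 were lowest in macrophage-like cells and 13 in fibroblast-like cells, while 37 were highest in T cell-like, 20 in cDC2-like and 19 in migratory dendritic cell-like cells. Over all 82 genes the pooled shares in HFD were 14.97% in fibroblast-like and 12.72% in macrophage-like cells. In control the pooled shares were 13.45% and 14.11%, but single control samples did not keep this order. Fibroblast-like cells stood at 13.72% and macrophage-like cells at 13.92% in control sample 1, and at 14.16% and 13.69% in control sample 3. Control sample 2 held only 3 fibroblast-like cells. The median gene differed 1.83-fold between its highest and lowest class. Rpsa had the widest range, 4.07-fold, at 3102 CPM in migratory dendritic cell-like, 1952 in T cell-like, 1836 in cDC2-like and 763 in macrophage-like cells. Within monocyte-like cells Rpsa stood at 1122, 1141 and 1012 in HFD and 1572, 1247 and 1402 in control samples, without overlap. In cDC2-like cells it overlapped, at 1967 and 1818 in HFD and 1788, 1936 and 1856 in control, as it did in fibroblast-like cells, at 871, 833 and 881 in HFD and 869 and 1067 in control. Rps27l ranged between 1470 in migratory dendritic cell-like and 486 in B cell-like cells, and Rps27 between 7098 in T cell-like and 2634 in cycling cells. Rps19 was highest in migratory dendritic cell-like cells, at 7968, and lowest in macrophage-like cells, at 3094. Rpl36al was highest in monocyte-like cells (815) and lowest in fibroblast-like cells (320).

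Genes around the ribosome did not all follow. In whole samples 15.2% of all genes tested passed as higher and 17.2% as lower, and in macrophage-like cells 5.68% and 9.15%. Of 6 ribosomal proteins that the symbol rule leaves out 3 fell in whole samples and in macrophage-like cells: Fau (-0.635, adjusted p = 0.00052 in whole samples), Gnb2l1, the scaffold also called Rack1 (-0.72, adjusted p = 0.0005), and Rps27rt. Rps3a1, which the rule also misses and which was looked up after the values were seen, fell by 0.63 (adjusted p = 0.00085). Of 18 translation factors and other genes with a pyrimidine start 8 fell and 1 rose in whole samples. Tpt1, an abundant growth-linked protein, fell by 0.53 (adjusted p = 0.0020) and the initiation factor Eif4b by 0.53 (adjusted p = 0.0021), while Vim, a filament protein of mesenchymal cells and macrophages, rose by 0.63 (adjusted p = 0.0040). Of 26 initiation factors 3 rose and 2 fell in whole samples, among them Eif5a (0.30, adjusted p = 0.031) and Eif2s3x (-0.61, adjusted p = 0.0047). Both counts lay below the whole-sample shares of all genes. In macrophage-like cells 4 of the 26 rose, above the 5.68% of all genes, and 2 fell, where 9.15% of all genes did. Their median there was 0.083, beside -0.022 for all genes, and Eif3l, Eif2s1 and Eif5a were among those that rose.

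For the genes that make ribosomes and the proteins of the mitochondrial ribosome, the whole-sample counts were near or below the shares of all genes that passed (15.2% higher and 17.2% lower). Of 33 ribosome biogenesis genes 2 (Myc and Rrp1) rose and 2 (Fbl and Polr1a) fell in whole samples, with a median of 0.06. In macrophage-like cells 3 of 31 tested (Rrp1, Myc and Bop1) rose, above the 5.68% of all genes, and 0 fell, with a median of 0.205. Myc, a regulator of this programme, stood at 56.8, 50.2 and 55.9 CPM in HFD and 27.6, 15 and 13.3 in control in whole samples (1.34 ± 0.24, adjusted p = 0.0035). In macrophage-like cells Myc was lower, at 31.0, 22.7 and 25.5 in HFD and 11.3, 15.2 and 16.2 in control (0.845 ± 0.226, adjusted p = 0.038). Fbl, which modifies ribosomal RNA, fell by 0.72 in whole samples (adjusted p = 0.00082). Of 77 mitochondrial ribosomal protein genes 12 rose and 3 fell, with a median of 0.21, and in macrophage-like cells 4 of 76 rose and 0 fell, where 5.68% and 9.15% of all genes passed. Mrps18a stood at 84.3, 80.6 and 83.4 in HFD and 49.0, 54.1 and 56.8 in control (0.50 ± 0.09, adjusted p = 0.0037). Among 13 mitochondrially encoded genes 8 fell, and among 22 tested immediate early genes, a mark of handling and activation, 15 fell and 0 rose. The immediate early genes took 1.61% ± 0.0327 of UMIs in HFD and 1.82% ± 0.111 in control, and their part in the ribosomal protein result was not tested.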

How the data were processed

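The authors deposited whole-number UMI counts per gene and cell barcode, with no normalization, per the file headers and values. The submitters' processing notes name Cell Ranger, Seurat 2.4 and mm9 without a role. No position from the files is printed, and start sequences are RefSeq's on GRCm38.p6. Replicate numbers come from the titles. Intervals cover counting error only. The members, gene lists and markers were chosen with earlier results of these data known, and naming thresholds were set after the data were seen. Cells needed at least 200 genes and at most 10% mitochondrial UMIs. Clustering without the ribosomal protein genes used 2000 variable genes, 30 components, 20 neighbours and leidenalg 0.10.2 at resolution 1.0 (scanpy 1.11.5). Doublets were not called, and all cells stayed in. Counts summed per sample were tested with edgeR 4.0.16 (filterByExpr, TMM, R 4.3.3) across all genes, with Benjamini-Hochberg adjustment at 0.05. DESeq2 1.42.0, other scalings, filters, barcode rules and left-out samples were alternatives. Levels are CPM without TMM. Coding lengths are the longest per gene in GENCODE's basic GRCm38 annotation. The edgeR script was tested on simulated data.

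Named genes were those with the 8 highest levels, the 8 largest and 8 smallest fold changes in whole samples and 4 of each in macrophage-like cells, variant pairs, stalk genes and Rpsa, and the 6 with the widest range between classes, of which 1 is not reported here; up to 4 per related list. Classes needed 20 cells a sample, which only macrophage-like cells met.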

Additional observations from a re-analysis of the deposited data

How the results depend on the processing

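Of the share of UMIs, the whole-sample difference of -3.21 points was -2.06 as deposited, -1.70 with barcodes listed in 1 sample and -2.43 as a mean over cells, and ranged between -3.43 and -2.89 without 1 sample; the macrophage-like difference of -1.60 was -0.903 as deposited and -1.92 to -1.08 without 1 sample. The count of genes lower in whole samples (67) was 27 with barcodes listed in 1 sample, with 5 higher in place of 0, and 55 to 71 without 1 sample. In macrophage-like cells (17 lower, 0 higher) it was 11 with plain library sizes, 10 with no filter, 41 lower and 4 higher as deposited, 2 higher with barcodes listed in 1 sample, and 2 to 23 lower without 1 sample. Replicate numbers did not pair the samples (correlations of deviations of same-numbered samples -0.163, -0.07 and -0.131); with a replicate block 48 genes were lower in whole samples and 3 in macrophage-like cells. The cause of these moves was not tested, apart from fewer samples or genes tested.

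Single named genes changed sign as follows, in log2 fold change. With barcodes listed in 1 sample, whole-sample values were 0.131 for Rpl13, 0.429 for Rpl4, 0.063 for Rpl35, 0.307 for Rps2, 0.379 for Rpl15, 0.135 for Rpl31, 0.409 for Rpl3 and 0.346 for Rplp0, and macrophage-like values (an alternative chosen after seeing the data) 0.045 for Rps19, 0.028 for Rpl13, 0.092 for Rps2 and 0.049 for Rpl39. As deposited, whole-sample values were 0.139 for Rpl35 and 0.176 for Rpl15, and macrophage-like values 0.026 for Rpl41, 0.183 for Rps27, 0.117 for Rps28, -0.076 for Rpl4, -0.086 for Rpl10a and 0.104 for Rpl39. With plain library sizes, whole-sample values were 0.002 for Rpl31 and 0.067 for Rpl3, and macrophage-like values 0.065 for Rps2 and 0.038 for Rps27l. At clustering resolution 0.5 macrophage-like values were 0.015 for Rps2 and 0.021 for Rps27l. Without 1 sample, Rps4l ranged between -0.512 and 0.042 in whole samples, and in macrophage-like cells Rpl35 between -0.026 and 0.088, Rps2 between -0.045 and 0.01, Rpl31 between -0.032 and 0.109, Rps27l between -0.099 and 0.027 and Rpl39 between -0.148 and 0.008. Of these, the main value had passed the test for Rpl13 in whole samples and for Rps28 in macrophage-like cells, and for no other. In the classes fitted with at least 10 cells a sample edgeR called at most 1.04% of genes, and whether depth or cell number sets this was not tested.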
